A study of Mus musculus with 34 samples.

Results

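Mitochondrial ribosomal protein genes were examined in RNA-seq of E11.5 mouse limb buds with and without *Hnrnpk*. Members were the listed genes whose symbol starts with Mrpl or Mrps followed by a digit and whose mean FPKM over the 6 libraries was at least 0.5. FPKM gives sequenced fragments relative to the exon length of a gene and to a size set for each library. The symbol was matched by 78 of 22040 listed genes, and 77 of these passed the limit and are the members described here. No member lay close to the limit. The member with the lowest mean was *Mrpl33* at 3.12 FPKM, and the single gene outside, *Mrpl53*, was listed at 0 in each of the 6 libraries. Of the 790 exon bases of *Mrpl53*, 695 are shared on the same strand with *Gm42688*, so this 0 may be a matter of how reads were assigned and is not read as absence.

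The series holds 34 samples, of which the 6 RNA-seq libraries were used here, and the 28 samples of other assays were not analysed here. The groups were 3 WT libraries, labelled Hnrnpk WT, and 3 CKO libraries, labelled Hnrnpk CKO, all of limb buds at E11.5. CKO embryos carry Prrx1-Cre and *Hnrnpk* fl/fl alleles, so that floxed exons of *Hnrnpk* are lost where Prrx1-Cre is active, which is the limb bud mesenchyme and the calvarium, with incomplete activity in the hindlimb. Limb ectoderm, blood, endothelium and invading muscle precursors are outside that lineage and were part of the tissue. The libraries were made with a stranded mRNA kit. Where 3 values of a group are listed, they stand in the order of the replicate numbers 1, 2 and 3. Recovered reads came to 17219135, 23165035 and 20869697 for WT and to 17140887, 21190300 and 24624444 for CKO. The library size behind the deposited FPKM was not in fixed proportion to these reads. The reads came to 0.955, 0.968 and 0.957 of that size in WT and to 0.947, 1.11 and 1.03 of it in CKO, so CKO replicates 2 and 3 have higher FPKM for the same share of reads than the other 4 libraries. At the median gene the deposited FPKM were nonetheless nearly level between libraries. Over genes detected in every library, the median ratio to a gene's geometric mean was 1, 1.008 and 1.004 in WT. In CKO it was 0.9865, 0.9957 and 1.007.

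Mitochondrial ribosomes translate the few messenger RNAs that mitochondrial DNA encodes, which specify subunits of the respiratory chain and ATP synthase. Their RNAs come from mitochondrial DNA, while all of their proteins are encoded in the nucleus, made on cytosolic ribosomes and imported. Some of these proteins descend from proteins of the bacterial ribosome and others were gained in the mitochondrial lineage, and both kinds occur in the large and in the small subunit.

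The labels were checked first on the deleted gene. *Hnrnpk* had an FPKM of 193, 195 and 185 in WT and of 127, 142 and 135 in CKO. All 3 CKO libraries lay below all 3 WT libraries, at 70.6% of the WT mean (exact two-sided permutation *p* = 0.1, the smallest that 3 libraries against 3 allow). In limma on log2(FPKM + 0.1) the log2 fold change was -0.50 with a standard error of 0.13, and the adjusted *p* was 0.334 (0.0575 with the replicate number as a block and 0.0377 in replicates 2 and 3 alone). In the same fit, 4 of 6 genes of a p53 target list, *Eda2r*, *Ccng1*, *Cdkn1a* and *Phlda3*, rose in CKO limb buds with a limma adjusted *p* under 0.05, and *Ccng1*, *Cdkn1a* and *Phlda3* lost it when WT replicate 3, CKO replicate 2 or CKO replicate 3 was left out, and *Ccng1* also without WT replicate 1, without WT replicate 2 and with no filter on low values. With the replicate number as a block, *Bax* passed as well (limma adjusted *p* = 0.00398). All 8 limb mesenchyme markers were detected, *Prrx1* and *Twist1* with means of 57.3 and 97.3 FPKM, and *Tbx5* was the only one with an unadjusted *p* under 0.05 (log2 fold change -0.93).

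Replicate 1 of both groups stood apart from the other libraries before any comparison of genotypes. Genes tested were the 12305 whose mean reached 0.5 FPKM. Their first principal component, which held 52.6% of the variance, placed replicate 1 of both groups at -32.1 (WT) and -30.4 (CKO) and the other 4 libraries between 6.09 and 27.7. The second, with 26.0% of the variance, separated the genotypes, at -2.74, -22.3 and -19.3 in WT and at 13.1, 19.4 and 11.9 in CKO. The main counts of members below are therefore given also for replicates 2 and 3 alone or without the libraries that move them most. Transcripts of 8 globin genes made up 13.7%, 19.5% and 20.6% of the summed FPKM in WT and 11.7%, 32.4% and 23.5% in CKO.

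Member levels spanned a range of 19.5-fold, from *Mrpl33* to *Mrps21*, with a median of 17.3 FPKM against 7.07 FPKM over all 12305 genes tested. By place in the ribosome, 50 members belong to the large subunit, 26 to the small subunit and 1, *Mrps36*, to neither. *Mrps30* and *Mrps18a* carry small-subunit names although their proteins sit in the large subunit, and they were counted there. The protein of *Mrps36* is now known as a part of the 2-oxoglutarate dehydrogenase complex. The numbers in the names were used as a rough guide to origin, which put 42 members with the bacterial series of names and 34 outside it. *Mrps18a* and *Mrps18b* were set outside although both are related to bacterial S18, so these groups are a matter of naming. Members lie on 17 chromosomes. The only members whose starts lie within 10 kb of each other are *Mrpl46* and *Mrps11* on chromosome 7, which lie on opposite strands, overlap at their 5′ ends with 412 bases between their starts and share 173 exon bases.

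The most abundant member was *Mrps21*, a small-subunit protein with a bacterial homologue, at 51.2, 71.9 and 54.8 FPKM in WT and 42.5, 80.6 and 64.1 FPKM in CKO. The CKO group held both its lowest and its highest value, so the groups overlapped over the whole WT range. *Mrpl18*, a large-subunit protein, had 48.6 ± 7.01 FPKM in WT and 58.8 ± 14.6 FPKM in CKO (SD, n = 3 each). *Mrpl12*, which forms the stalk of the large subunit where translation factors bind, had 44.3, 48.2 and 42.3 FPKM in WT and 40.6, 64.1 and 60.3 FPKM in CKO. CKO replicate 1 was the lowest of the 6 libraries for *Mrpl12* and CKO replicates 2 and 3 were the highest. *Mrpl34* had 50.7 ± 9.05 FPKM in WT and 48.2 ± 9.87 FPKM in CKO (SD, n = 3 each). *Mrpl28* had 42.3 ± 7.26 FPKM in WT and 53.6 ± 10.9 FPKM in CKO (SD, n = 3 each). For each of these 5 genes the difference between group means was within the spread of the CKO libraries or close to it, and the limma adjusted *p* was 0.719 or higher. Within replicate numbers, CKO exceeded WT in every pair for *Mrpl28* (0.25, 0.34 and 0.42 on the log2 scale) and *Mrpl18* (0.04, 0.35 and 0.36). The sign differed between pairs for *Mrps21*, *Mrpl12* and *Mrpl34*. With the replicate block the limma adjusted *p* of *Mrpl28* was 0.115. In replicates 2 and 3 alone *Mrpl12* passed the threshold (limma adjusted *p* = 0.0166).

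At the low end, *Mrpl33* had 2.53, 3.55 and 3.36 FPKM in WT and 1.99, 3.76 and 3.54 FPKM in CKO. Replicate 1 was the lowest library in each genotype. *Mrps35* had 3.66 ± 0.229 FPKM in WT and 3.91 ± 0.349 FPKM in CKO, and *Mrps10* had 3.92 ± 0.518 FPKM in WT and 4.14 ± 0.638 FPKM in CKO (SD, n = 3 each). The exons of *Mrpl33*, *Mrps35* and *Mrps10* are long, with 7326, 8631 and 8079 bases. FPKM divides by that length. *Mrps21*, with 739 exon bases, had 568 to 1272 reads in a library, against 577 to 887 for *Mrps35* and 490 to 849 for *Mrps10*. The ranking of members by FPKM, and their median beside that of all genes, thus depend on annotated length. *Mrpl33* had at least 264 reads in a library, and the lowest number behind any member was 176 reads, for *Mrps36*, against a median of 800 reads over members and libraries.

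No member had a limma adjusted *p* under 0.05, where 8 of 12305 genes tested did (0.0650%), at an unadjusted *p* under 0.05 there were 3 members of 77, while 8.31% of all genes tested passed that level, and voom on recovered reads, which held 70 members, gave 0 members at an adjusted and 2 at an unadjusted *p* under 0.05 (8.58% of genes tested). Without the trend there were 0 members at an unadjusted *p* under 0.05 (8.77% of genes tested). The 3 members of the main fit were all higher in CKO, where 2.84% of genes tested were called in that direction, and none was lower, against 5.46% of genes tested. The member share was thus below or near that of all genes. Without CKO replicate 1 there were 31 members at that level (19.6% of genes tested), without WT replicate 1 there was 1 (11.3% of genes tested), and without any other single library there were 0 (4.17% to 5.79% of genes tested). With the replicate number as a block in limma, 18 members had an unadjusted *p* under 0.05, against 18.4% of all genes. Of these members, 16 were higher in CKO (8.14% of genes tested) and 2 were lower (10.2% of genes tested). With that block no member had an adjusted *p* under 0.05, where 346 genes did (2.81%).

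The distribution of the members as a whole lay above that of all genes. The median log2 fold change of members was 0.14, with quartiles of 0.08 and 0.25, and the median of all genes tested was 0.00479. Without CKO replicate 1 the member median was 0.28 and without CKO replicate 2 it was 0.0558. The log2 fold change was above 0 for 65 of 77 members (84.4%), where 50.9% of all genes tested had one above 0, and for 68 members in replicates 2 and 3 alone. Single members ranged from -0.26 to 0.42. None reached 0.5 in size, while 790 genes tested did. A limma 95% interval that included 0 was found for 74 members, and the median distance from an estimate to either end of its interval was 0.37. When the FPKM were rescaled to the sum without globin genes, the median of the members was 0.03 and that of all genes -0.10, a shift of about 0.10 in both, and 47 of 77 members were above 0 in place of 65, against 31.3% of all genes. In that rescaling 18 members turned from above to below 0, among them *Mrps21*, *Mrps35*, *Mrps10*, *Mrps12*, *Mrps11*, *Mrps25* and *Mrpl48*, and the members with an unadjusted *p* under 0.05 were then 2, both lower in CKO (8.03% of genes tested). An alternative chosen after seeing the data, FPKM rescaled to the recovered reads, gave a member median of 0.0429 and an all-gene median of -0.0901, with 48 members above 0 (33.1% of genes tested), 2 at an unadjusted *p* under 0.05 (9.42% of genes tested), both lower, and 4 whose groups did not overlap (15.1% of genes tested). There 17 members turned below 0, including these 7. Both rescalings thus moved the median of all genes away from 0, whereas scaling by the median ratio left it at 0.0156. In bulk tissue, fewer cells of a type and less RNA per cell cannot be told apart.

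**Figure D1:**
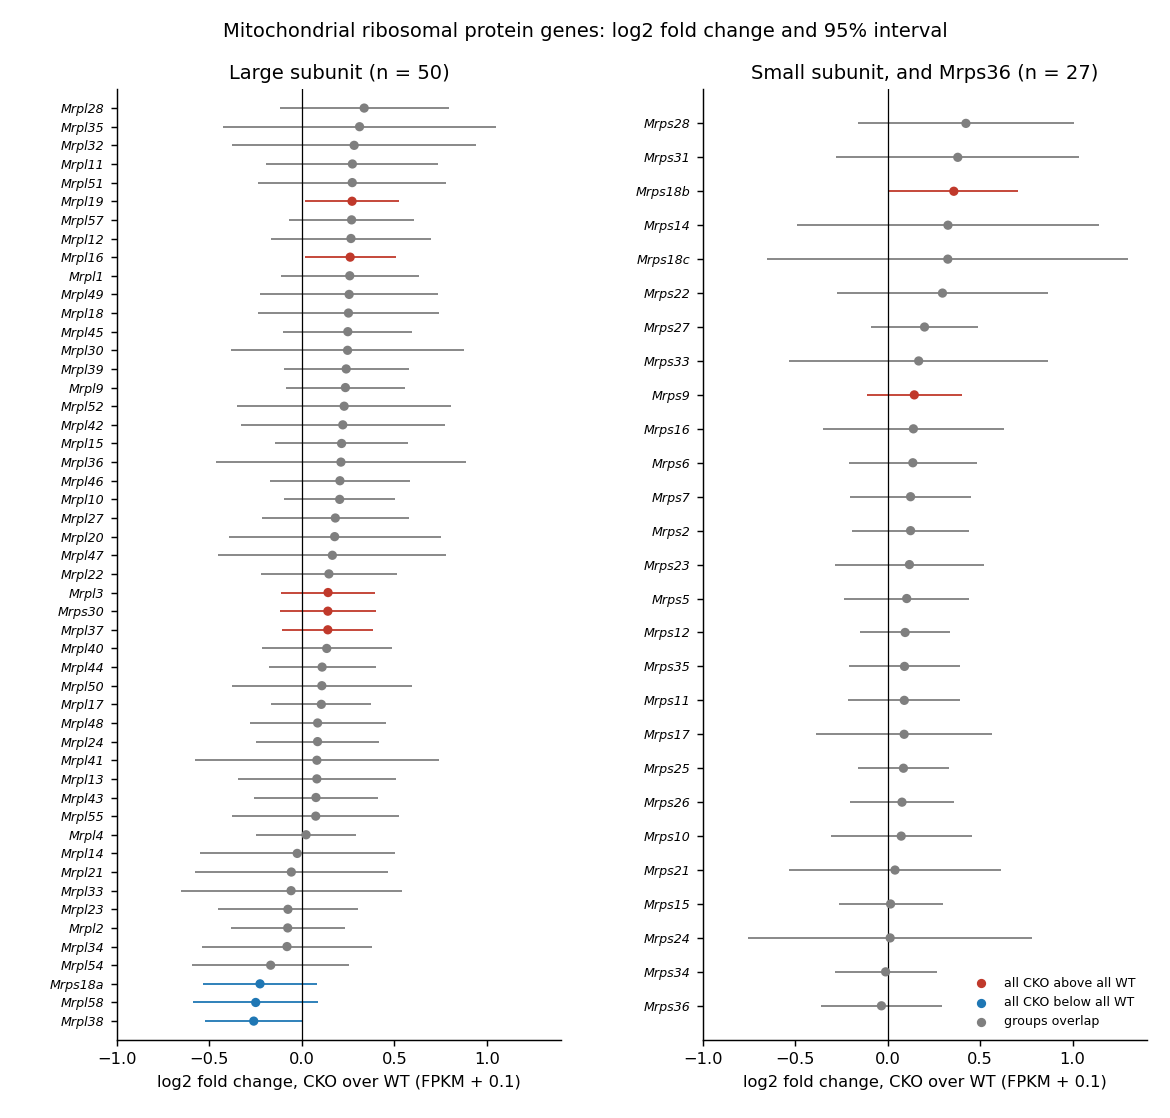
Log2 fold change (CKO over WT, FPKM + 0.1) of each of the 77 members with its limma 95% interval, by subunit, with *Mrps36* shown beside the small subunit. Red and blue mark the 7 members whose CKO values all lie above and the 3 whose CKO values all lie below the WT values.

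The 3 CKO values lay all above the 3 WT values for 7 members, as for 5.63% of genes tested, and all below for 3 members, as for 8.86% of genes tested. Together these were 10 of 77 members, where 14.5% of all genes tested had groups that did not overlap. The member count was thus near the background. With fewer libraries, separate groups are more frequent in general. The count was 55 members in replicates 2 and 3 alone (58.5% of genes tested), 54 without CKO replicate 1 (42.0% of genes tested) and 16 without WT replicate 2 (19.5% of genes tested). After rescaling to the sum without globin genes it was 6 members (13.8% of genes tested).

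Among the 7 higher members, *Mrps18b* had the largest difference. It encodes a small-subunit protein, 1 of the 3 mammalian relatives of bacterial ribosomal protein S18. Its FPKM was 10.8, 8.72 and 7.44 in WT and 11.2, 11.5 and 11.5 in CKO. The CKO libraries were nearly level while the WT libraries were spread, and WT replicate 1 lay just under the CKO libraries. The log2 fold change was 0.36 with a standard error of 0.15 (limma unadjusted *p* = 0.0459, adjusted *p* = 0.579). Of its exon bases, 638 are shared with *Gm16279* on the opposite strand. The counting's use of strand is not given in the sources used here, so a share of these reads may come from that gene.

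*Mrpl19* and *Mrpl16*, large-subunit proteins with bacterial homologues, followed. *Mrpl19* had 8.40, 8.89 and 8.67 FPKM in WT and 9.70, 10.9 and 10.8 FPKM in CKO, with a log2 fold change of 0.27 (SE 0.11, limma adjusted *p* = 0.564). *Mrpl16* had 17.4, 16.5 and 16.0 FPKM in WT and 19.3, 19.6 and 21.1 FPKM in CKO, with a log2 fold change of 0.26 (SE 0.11, limma adjusted *p* = 0.564). In both genes CKO exceeded WT within each replicate number, by 0.21, 0.29 and 0.32 for *Mrpl19* and by 0.14, 0.24 and 0.39 for *Mrpl16* on the log2 scale in replicates 1, 2 and 3. *Mrpl19* shares 1962 exon bases with *Gcfc2* on the opposite strand and is uncertain for that reason, while *Mrpl16* shares none with another annotated gene.

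The other 4 higher members differed less. *Mrps9* in the small subunit had 7.74 ± 0.340 FPKM in WT and 8.56 ± 0.457 FPKM in CKO (SD, n = 3 each). In the large subunit, *Mrpl3* had 8.85 ± 0.244 against 9.78 ± 0.665 FPKM, *Mrps30* had 8.21 ± 0.282 against 9.07 ± 0.603 FPKM and *Mrpl37* had 15.6 ± 0.479 against 17.3 ± 0.929 FPKM in WT and CKO (SD, n = 3 each). For *Mrpl37* the separation rested on 16.1 FPKM in WT replicate 1 against 16.2 FPKM in CKO replicate 1. The log2 fold changes of these 4 genes were all 0.14, with limma adjusted *p* values between 0.804 and 0.811.

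The 3 lower members all belong to the large subunit. *Mrpl38* had 19.9, 20.1 and 17.7 FPKM in WT and 15.4, 15.6 and 17.2 FPKM in CKO, with a log2 fold change of -0.26 (SE 0.11, limma adjusted *p* = 0.601). The values of replicate 3 came closest to each other. *Mrpl58*, which encodes a peptidyl-tRNA hydrolase that frees stalled mitochondrial ribosomes and is also built into the large subunit, had 8.89, 11.1 and 8.90 FPKM in WT and 7.08, 8.89 and 8.28 FPKM in CKO. The separation between WT replicate 1 and CKO replicate 2 was in the third decimal, and the log2 fold change was -0.25 (SE 0.14, limma adjusted *p* = 0.715). *Mrps18a*, a relative of *Mrps18b*, had 7.79, 7.55 and 7.26 FPKM in WT and 7.17, 5.52 and 6.68 FPKM in CKO (log2 fold change -0.23, SE 0.13, limma adjusted *p* = 0.719). CKO replicate 2 was the library farthest below WT for *Mrps18a*, although it was the highest library for most other members. The S18 relatives thus differed among themselves, with *Mrps18b* above and *Mrps18a* below WT in every CKO library. Neither passed the adjusted threshold with all 6 libraries. In replicates 2 and 3 alone *Mrps18b* passed it (log2 fold change 0.51, limma adjusted *p* = 0.00633) and *Mrps18a* did not (-0.28, limma adjusted *p* = 0.157). The difference between these genes was not tested.

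**Figure D2:**
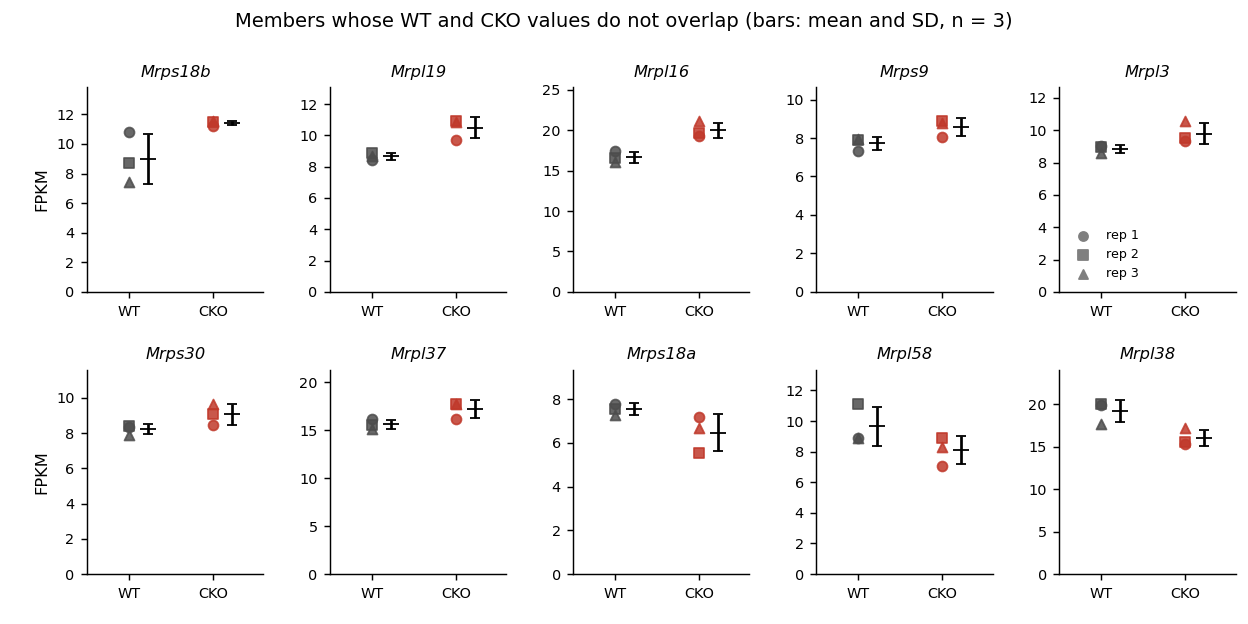
FPKM by library for the 10 members whose WT and CKO values do not overlap, with 1 symbol per replicate number and the mean and SD of each group beside the points. For *Mrps18b* the CKO values lie between 11.2 and 11.5 FPKM and the WT values between 7.44 and 10.8 FPKM.

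Of the members singled out for their function, *Mrps12*, part of the decoding centre of the small subunit, had 16.4 ± 0.595 FPKM in WT and 17.5 ± 0.670 FPKM in CKO (SD, n = 3 each), with a log2 fold change of 0.09. *Mrps36* had 9.16 ± 0.847 FPKM in WT and 8.98 ± 1.22 FPKM in CKO (SD, n = 3 each), and its log2 fold change was -0.03. Annotated pseudogenes exist for *Mrps36*, *Mrpl23* and *Mrpl48*, and the values of these 3 genes are uncertain where reads could be shared. *Mrps34* is uncertain too, since 763 of its 2064 exon bases are shared with *Nme3* on the same strand and 1309 with *Mapk8ip3* on the opposite strand, and *Nme3*, named after its values were seen, was listed at 0 in each library.

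In the large subunit the median log2 fold change was 0.16 and 40 of 50 members were above 0, and in the small subunit the median was 0.12 and 25 of 26 were above 0. After rescaling to the sum without globin genes, 18 members turned below 0, more of them from the small than from the large subunit. The order of the subunits by the share above 0 thus depends on the scaling. No difference between the subunits was tested. Members within the bacterial series of names had a median of 0.14 (36 of 42 above 0) and those outside it had a median of 0.14 (29 of 34 above 0). The largest 2 estimates belonged to members whose groups overlapped. *Mrps28* of the small subunit had 18.1, 22.9 and 15.9 FPKM in WT and 17.3, 33.5 and 27.5 FPKM in CKO, with a log2 fold change of 0.42 (SE 0.25, limma adjusted *p* = 0.723). CKO replicate 1 was level with the WT libraries and CKO replicates 2 and 3 were above all of them. *Mrps31*, named after its values were seen as *Mrps28* was, had 5.83 FPKM in CKO replicate 1 but 13.0 and 10.4 FPKM in CKO replicates 2 and 3, against 5.93, 8.14 and 7.36 FPKM in WT.

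That pattern was general. Over the 77 members, the median deviation from a gene's own mean on the log2 scale was -0.18, 0.07 and -0.12 in WT and -0.23, 0.25 and 0.19 in CKO. Over all genes tested these medians stayed between -0.02 and 0.01. With FPKM rescaled to the recovered reads, the member medians were -0.12, 0.10 and -0.06 in WT and -0.16, 0.10 and 0.13 in CKO, while those of all genes were 0.06, 0.05 and 0.06 in WT and 0.05, -0.16 and -0.05 in CKO. CKO replicate 2 was the highest library for 48 members (62.3%), against 26.1% of genes tested. CKO replicate 1 was the lowest library for 39 members (50.6%), against 25.1% of genes tested. The summed FPKM of the members was 1238, 1524 and 1318 in WT and 1186, 1734 and 1631 in CKO. By these sums the CKO group held the lowest and both of the highest libraries. As a share of all summed FPKM, the members were lowest in CKO replicate 2 (0.395%) and highest in WT replicate 2 (0.470%).

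Within replicate numbers, the CKO library was above the WT library for 28 of 77 members in replicate 1 (47.1% of genes tested), for 61 in replicate 2 (50.2% of genes tested) and for 73 in replicate 3 (50.3% of genes tested). The median difference of members was -0.06, 0.16 and 0.30 on the log2 scale in replicates 1, 2 and 3, while the medians of all genes tested were -0.01, 0.00 and 0.00. Replicate 1 thus went against the other pairs. How libraries 2 and 3 match between genotypes was not settled by the data. CKO was above WT in all 3 replicate numbers for 23 members (18.2% of genes tested) and below in all 3 for 3 members (21.3% of genes tested). A further 38 members were below WT in replicate 1 and above it in replicates 2 and 3 (17.2% of genes tested).

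**Figure D3:**
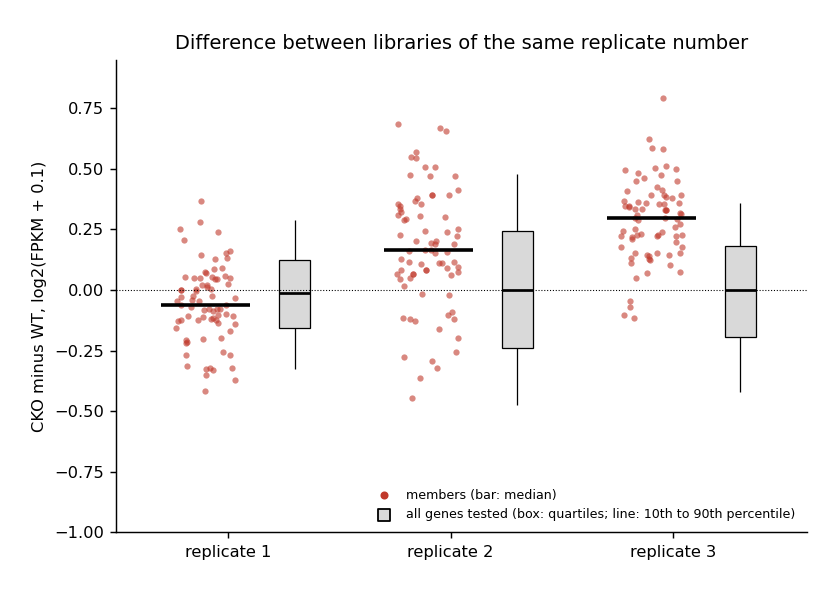
Difference in log2(FPKM + 0.1) between the CKO and the WT library of the same replicate number, where red points are the 77 members with a bar at their median, and each box with its line gives the quartiles and the 10th to 90th percentiles of all genes tested. The member median is -0.06 in replicate 1 and 0.30 in replicate 3.

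In replicates 2 and 3 alone, with 2 libraries per group, limma called 18 members at an adjusted *p* under 0.05, all higher in CKO. An unadjusted *p* under 0.05 was reached by 33 members there (29.0% of genes tested). In that comparison 15.0% of all genes tested were called, and 7.05% were called as higher in CKO. The 18 comprised 11 members of the large subunit and 7 of the small subunit, 9 within the bacterial series of names and 9 outside it. The median log2 fold change of members was 0.21 there, against 0.00701 over all genes. The lowest adjusted *p* values belonged to *Mrps28* (log2 fold change 0.67, limma adjusted *p* = 0.00136), *Mrps31* (0.58, limma adjusted *p* = 0.00253) and *Mrpl35* (0.58, limma adjusted *p* = 0.00292). These rest on 4 libraries, and in replicate 1 *Mrps28* differed from WT by -0.07 and *Mrps31* differed by -0.03 on the log2 scale.

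Members differed in how far they followed the replicate 1 libraries. The mean of the replicate 1 libraries was below that of the other 4 libraries for 69 of 77 members, with a median gap of -0.28 on the log2 scale against -0.02 over all genes tested. The gap was widest for *Mrps18c*, the third S18 relative, at -1.12, a gene that is uncertain because 250 of its 1076 exon bases are shared with *Gm43511* on the same strand. Its FPKM was 10.5, 21.3 and 16.1 in WT and 9.91, 29.6 and 24.2 in CKO, so that its highest library was 2.99 times its lowest. At the other end, *Mrps2* was higher in the replicate 1 libraries by 0.21 and *Mrps18b* by 0.19, while *Mrpl16* and *Mrps12* had gaps of 0.00931 and 0.00716. The median member had a ratio of 1.46 between its highest and its lowest library, and the lowest ratio, 1.15, was that of *Mrps25*, which is uncertain because 4590 of its 6576 exon bases are shared with *Nr2c2* on the opposite strand. *Mrps18c*, *Mrps2* and *Mrps25* were chosen after their values were seen.

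Over all genes tested the gap was related to exon length, and over members more weakly. Members have shorter exons than genes in general, with a median merged length of 2533 bases against 4430.5 bases over genes tested. The 26 shortest members (607 to 1667 bases) had a median gap of -0.43, the 25 in the middle -0.23 and the 26 longest -0.24 (3332 to 8631 bases). Across genes, which share the 6 libraries and are not independent, Spearman's rho between the gap and exon length was 0.43 over 12294 genes and 0.20 over 77 members. Between the log2 fold change of CKO over WT and exon length it was 0.06 over members. RNA quality was not measured in the values used, and the part of length in the member values was not tested.

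Other gene groups that make up ribosomes and the respiratory chain followed the same libraries, with wider swings. Over 77 cytosolic ribosomal protein genes the median deviation was -0.38, 0.15 and -0.13 in WT and -0.50, 0.57 and 0.32 in CKO. Over 79 genes of nuclear respiratory chain subunits it was -0.37, 0.20 and -0.06 in WT and -0.44, 0.46 and 0.26 in CKO. The distance between the lowest and the highest library was 0.48 for the members, 1.08 for the cytosolic ribosomal proteins and 0.90 for the respiratory chain subunits. Their median log2 fold changes were 0.26 and 0.14, beside 0.14 for the members, and no gene of either list had a limma adjusted *p* or an unadjusted *p* under 0.05. With the replicate block, 10 of 77 cytosolic ribosomal protein genes and 9 of 79 respiratory chain genes had a limma unadjusted *p* under 0.05, all higher in CKO. Beside them were 18 of 77 members, 16 higher and 2 lower. Of all genes tested 18.4% passed that level, and 8.14% were higher in CKO. In replicates 2 and 3 alone 19 and 10 genes of these lists and 18 members had a limma adjusted *p* under 0.05, all higher in CKO. There 15.0% of all genes tested were called, and 7.05% were called as higher.

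Globin levels moved with the same libraries. The 12 erythroid marker genes were all detected, with a summed FPKM of 38014, 63505 and 64256 in WT and 31033, 143390 and 85844 in CKO. The most abundant of them was *Hbb-y* in every library, with 12266 FPKM in CKO replicate 1 and 78176 FPKM in CKO replicate 2. In FPKM as deposited, the libraries with the lowest erythroid sum were those with the lowest member levels, and CKO replicates 2 and 3 were highest in both. With FPKM rescaled to the recovered reads, the member median deviation was 0.104 in WT replicate 2, 0.0959 in CKO replicate 2 and 0.131 in CKO replicate 3. No erythroid marker had a limma unadjusted *p* under 0.05 between genotypes. Without the globin genes, the members took 0.523%, 0.584% and 0.536% of the summed FPKM in WT and 0.514%, 0.584% and 0.590% in CKO. The proliferation markers also had their highest sum, 695 FPKM, in CKO replicate 2 and their lowest, 441 FPKM, in CKO replicate 1. Of the other marker lists, the 8 ectoderm genes summed to 44.4, 64.2 and 74.1 FPKM in WT and 48.9, 76.5 and 76.0 FPKM in CKO, and the 6 muscle precursor genes to 13.9, 29.0 and 26.0 FPKM in WT and 25.2, 32.2 and 30.4 FPKM in CKO, also highest in CKO replicates 2 and 3. The sums of the limb mesenchyme, endothelial and macrophage lists peaked in other libraries. The 8 limb mesenchyme genes summed to 337, 386 and 393 FPKM in WT and 359, 323 and 367 FPKM in CKO, lowest in CKO replicate 2. The 5 endothelial genes summed to 26.5, 18.2 and 20.5 FPKM in WT and 13.0, 21.8 and 19.1 FPKM in CKO, highest in WT replicate 1. *Cdh5* and *Kdr* were highest there, while *Emcn*, *Tek* and *Pecam1* were highest in CKO replicate 2. Each of the 5 was lowest in CKO replicate 1. The 5 macrophage genes summed to 15.7, 12.1 and 13.1 FPKM in WT and 13.5, 14.2 and 11.8 FPKM in CKO, highest in WT replicate 1. Only *Cd68* among them was highest there. *Fcgr1* and *Adgre1* were highest in CKO replicate 2, and *Csf1r* and *Ptprc* in WT replicate 3. The 5 neural crest and Schwann precursor genes summed to 3.28, 7.94 and 7.91 FPKM in WT and 6.56, 8.29 and 7.45 FPKM in CKO. Their sums were lowest in the replicate 1 libraries and highest in CKO replicate 2. The part of red blood cells, of other cell types or of proliferation in the member values was not tested.

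**Figure D4:**
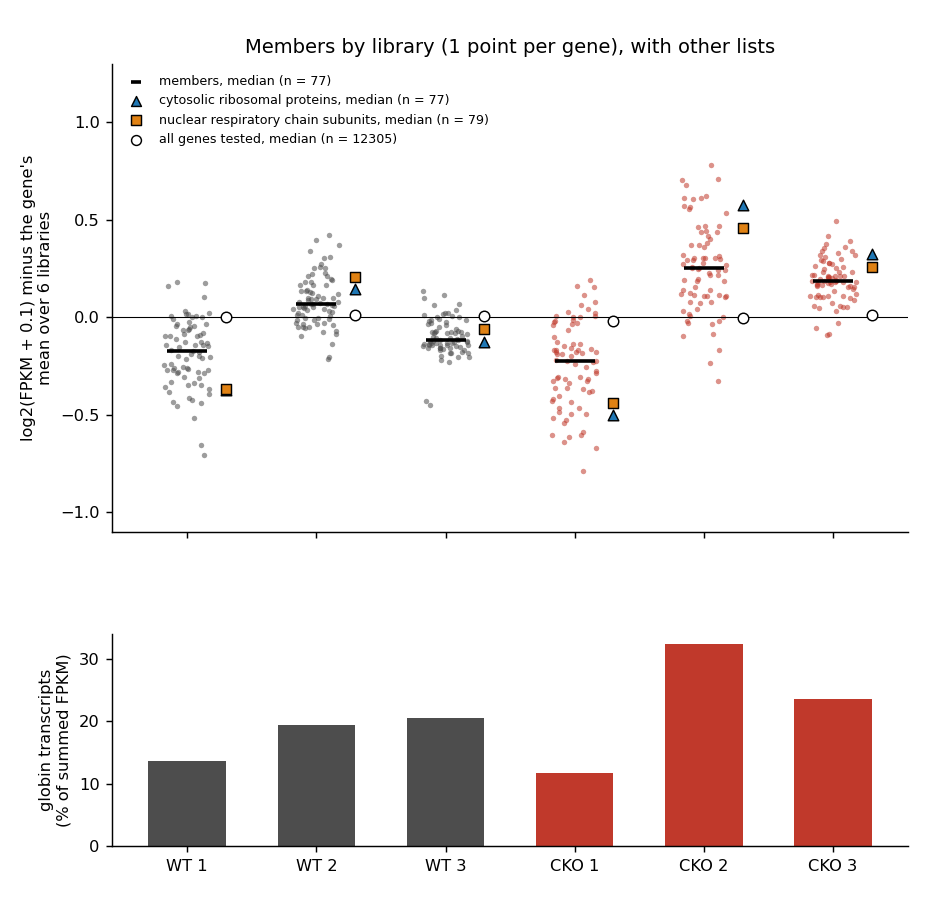
Upper panel: deviation of each of the 77 members from its own mean over the 6 libraries (log2 of FPKM + 0.1), with a bar at the member median and symbols for the medians of the other lists. Lower panel: globin transcripts as a percentage of summed FPKM in the same libraries, from 11.7% in CKO replicate 1 to 32.4% in CKO replicate 2.

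Genes that act with the mitochondrial ribosome were read from lists, and none of these lists held a gene with a limma adjusted *p* under 0.05. The 5 ribosomal proteins under other symbols had a median log2 fold change of 0.16, all above 0. *Chchd1*, a small-subunit protein, had 36.4, 60.3 and 48.1 FPKM in WT and 41.4, 90.8 and 75.2 FPKM in CKO, highest in CKO replicates 2 and 3 and lowest in WT replicate 1. *Dap3*, a GTP-binding small-subunit protein, had a log2 fold change of 0.16. Of the 27 assembly factors 14 were above 0, with a median of 0.05. The largest differences were those of *Mettl15*, an RNA methyltransferase (0.50), and *Fastkd5*, an RNA-processing factor (0.37), and the CKO values of *Fastkd5* all lay above its WT values.

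Translation factors and tRNA synthetases held genes with larger differences than any member. *Guf1*, the mitochondrial relative of elongation factor 4, had 7.58, 6.89 and 7.71 FPKM in WT and 5.36, 4.62 and 4.72 FPKM in CKO. *Sars2*, the mitochondrial seryl-tRNA synthetase, had 8.37, 8.30 and 7.64 FPKM in WT and 5.84, 3.93 and 3.82 FPKM in CKO. Both were lower in every CKO library, with log2 fold changes of -0.58 (limma adjusted *p* = 0.237) and -0.85 (limma adjusted *p* = 0.243). With the replicate number as a block, both passed the threshold (limma adjusted *p* = 0.0172 for *Guf1* and 0.00470 for *Sars2*), and together with *mt-Nd4l* they were the 3 genes of these lists that did. *Taco1*, a translational activator of cytochrome oxidase subunit I, was higher in every CKO library (log2 fold change 0.44, limma adjusted *p* = 0.430), and *Nars2*, the asparaginyl-tRNA synthetase, had -0.37. The medians were 0.06 for 15 translation factors and 0.01 for 17 synthetases.

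The remaining lists lay near the median of all genes or were less certain. For 8 genes of mitochondrial DNA transcription and replication the median was 0.01, with *Polg2*, a polymerase subunit, at -0.25 and *Tfb2m*, a transcription factor, at 0.24. For 10 regulators of mitochondrial biogenesis it was 0.05, and the coactivator genes *Ppargc1b* and *Pprc1* had 0.49 and 0.29. *Pprc1* had its highest values in the replicate 1 libraries, 18.1 FPKM in WT and 22.3 FPKM in CKO, where the members had their lowest. The 13 mRNAs encoded by mitochondrial DNA, the templates of the mitochondrial ribosome, had a median of 0.27 and all lay above 0, and their summed FPKM was 17845, 21722 and 21319 in WT and 15906, 33165 and 24431 in CKO. Again CKO replicate 1 was lowest and CKO replicate 2 highest. The largest values of this list, 0.95 for *mt-Atp8* and 0.56 for *mt-Nd4l*, are uncertain because these genes overlap *mt-Atp6* and *mt-Nd4*, and *mt-Atp8* turned to -0.10 without CKO replicate 3. Values of *mt-Co2*, *mt-Co3*, *mt-Atp6* and *mt-Nd3* are uncertain too, with low WT means of 48.1, 37.96, 50.98 and 6.12 FPKM. The WT means of *mt-Co1* and *mt-Nd1* were 6409 and 3795 FPKM. The summed FPKM thus came almost wholly from the more abundant genes of the list. The cause of the low values was not tested.

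**Figure D5:**
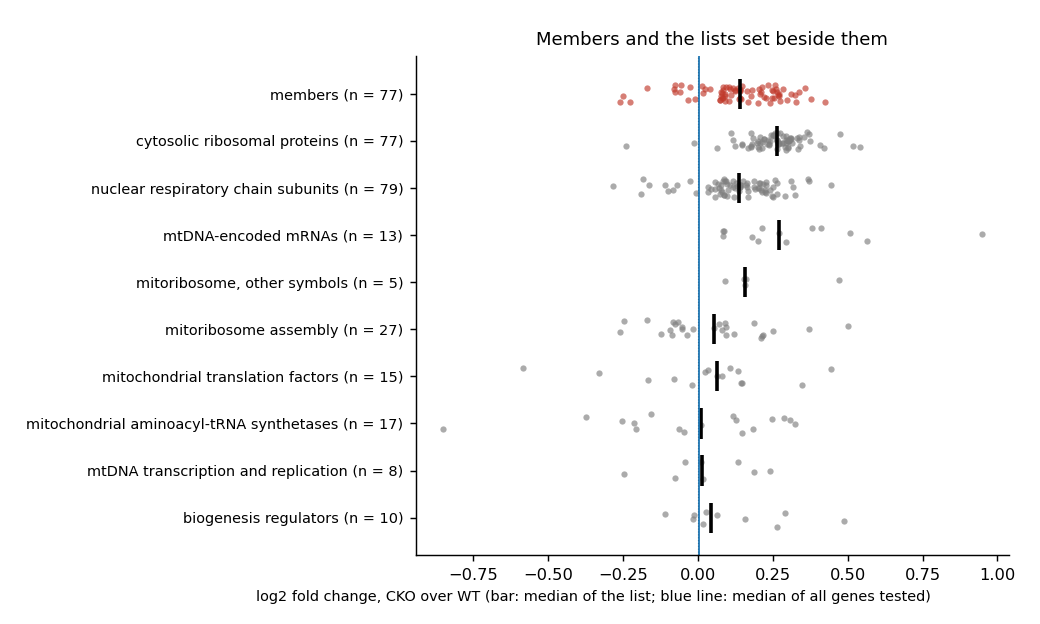
Log2 fold change of CKO over WT (FPKM + 0.1), 1 point per gene, for the members and for the lists set beside them, with a bar at each list's median and a line at the median of all genes tested. The member median is 0.14, that of the cytosolic ribosomal proteins 0.26 and that of the aminoacyl-tRNA synthetases 0.01.

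Because the members varied together across libraries, their promoters were searched for letters known from genes of mitochondrial function. RefSeq promoters on GRCm38.p6, from 250 bases before to 50 bases after the start, were given for 68 of the 77 members. The strings searched on both strands were GCGCATGC for NRF1, CCGGAAGT for the ETS-family factor GABP and AAGATGGC for YY1. The NRF1 string was held by 8 of the 68 members (11.8%), by 6.1% of 9542 genes tested with a promoter and by 2.7% of all 32851 promoters. The GABP string was held by 12 members (17.6%), 9.3% of genes tested and 3.9% of all promoters, and the YY1 string by 12 members (17.6%), 5.3% of genes tested and 2.7% of all promoters. At least 1 string occurred in 29 members (42.6%), in 19.2% of genes tested and in 8.8% of all promoters. No match overlapped a match of another string, and 3 overlaps were between an NRF1 match and its own match on the opposite strand. The 29 members with a string had a median log2 fold change of 0.20 and those without 0.12. The TATA string TATAAA, searched in the same way, was held by 5 members (7.4%), 8.4% of genes tested and 13.6% of all promoters. A match is a description of letters and not of binding.

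Of the 10 members whose groups did not overlap, 8 had a promoter in the table and 4 of these held a string. They are shown here 5′ to 3′ on the strand of the gene, with the matches in capitals. *Mrps18b* (minus strand, chr17:35916391-35916690) holds the NRF1 string on its reverse strand 223 to 216 bases before and 29 to 36 bases after the start, and was higher in CKO. *Mrpl3* (plus strand, chr9:105053018-105053317, GABP) and *Mrpl37* (minus strand, chr4:107066817-107067116, YY1) were higher as well, and *Mrps18a* (plus strand, chr17:46110754-46111053, YY1) was lower.
Mrps18b: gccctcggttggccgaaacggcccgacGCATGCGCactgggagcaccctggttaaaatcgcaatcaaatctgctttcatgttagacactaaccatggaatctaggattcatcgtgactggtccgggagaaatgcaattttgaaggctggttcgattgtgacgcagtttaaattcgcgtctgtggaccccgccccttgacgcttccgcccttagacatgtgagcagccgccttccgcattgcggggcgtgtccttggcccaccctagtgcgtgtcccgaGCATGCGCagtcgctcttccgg
Mrpl3: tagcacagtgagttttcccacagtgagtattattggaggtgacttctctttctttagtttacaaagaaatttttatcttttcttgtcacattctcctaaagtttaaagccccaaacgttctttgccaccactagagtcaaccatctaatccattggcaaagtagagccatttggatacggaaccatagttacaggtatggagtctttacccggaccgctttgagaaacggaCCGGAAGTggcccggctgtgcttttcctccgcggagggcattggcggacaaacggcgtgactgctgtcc
Mrpl37: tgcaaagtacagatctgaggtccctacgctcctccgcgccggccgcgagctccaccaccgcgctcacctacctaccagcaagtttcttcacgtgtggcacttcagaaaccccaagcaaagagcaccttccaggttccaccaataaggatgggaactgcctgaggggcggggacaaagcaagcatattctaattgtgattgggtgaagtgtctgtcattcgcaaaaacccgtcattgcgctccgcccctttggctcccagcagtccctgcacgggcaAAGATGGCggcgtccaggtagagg
Mrps18a: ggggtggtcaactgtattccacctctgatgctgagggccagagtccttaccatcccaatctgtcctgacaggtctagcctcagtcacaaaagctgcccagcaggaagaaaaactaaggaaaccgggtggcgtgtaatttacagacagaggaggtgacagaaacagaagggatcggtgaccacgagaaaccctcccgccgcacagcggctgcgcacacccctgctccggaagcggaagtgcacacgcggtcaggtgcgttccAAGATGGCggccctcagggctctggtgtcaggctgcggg
The YY1 string of *Mrps18a* lies 12 to 19 bases after the start and the GABP string of *Mrpl3* 19 to 12 bases before it. The same YY1 string thus stood in the promoter of a member that was lower in CKO and of one that was higher.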

How the data were processed

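A single FPKM table by the authors lists 22040 genes, and each RNA-seq library has its own column in it. The submitters' processing notes name cutadapt 2.5, HISAT2 2.1.0 and featureCounts 1.6.3 among their tools, and the annotation and the use of strand are not given in the sources used here. GENCODE vM21 held 99.5% of the identifiers, and its merged exon lengths gave whole reads (within 0.1) in all libraries for 92.6% of genes. The 12305 genes whose mean reached 0.5 FPKM were compared with limma 3.58.1 in R 4.3.3 (lmFit, eBayes with a trend) on log2(FPKM + 0.1), a scale that understates the change of low genes, with Benjamini-Hochberg adjustment across these genes. Nothing in the labels says whether libraries came from separate litters, so *p* values measure the spread between these libraries. Deviations from the group mean correlated across genes between libraries numbered 1, 2 and 3 at 0.636, 0.443 and 0.266, all above 0.1. The replicate numbers were therefore taken to pair the libraries. Deviations cancel out within a group, so with replicate 1 apart in both groups this check cannot decide how libraries 2 and 3 match. The crossed WT 2 with CKO 3 (0.495) and WT 3 with CKO 2 (0.307) correlated on the whole more than the pairs 2 and 3 used. What a number stands for is not stated. The replicate block and the differences within replicate numbers rest on this pairing. The genes named were *Hnrnpk*, members whose groups did not overlap (up to 8 in each direction), the 5 highest and 3 lowest by mean, *Mrps30*, *Mrps18a*, *Mrps36*, *Mrpl12*, *Mrps12*, genes next to the limit and, per list, genes past the threshold and the 2 largest. Members and lists were chosen with earlier results of these data known. The list of ribosomal proteins under other symbols held *Ict1* and *Mrp63*, which the table lists as the members *Mrpl58* and *Mrpl57*. Alternatives were other pseudocounts, filters and scalings, no trend, a replicate block, voom on recovered reads, replicates 2 and 3 alone, each library left out and, added after seeing the data, FPKM rescaled to recovered reads.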

Additional observations from a re-analysis of the deposited data

How the results depend on the processing

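The fold changes of the genes named by rule kept their direction and their side of the limma threshold in 630 of 679 values, and no setting with all 6 libraries called a member. Against 8 genes called, quantile normalization gave 14 and rescaling to the sum without globin genes gave 4, with 6 members whose groups did not overlap in place of 10. *Mrps21* turned to -0.0460 with quantile normalization and to -0.0674 without globin genes, where *Mrps35* (-0.0133), *Mrps10* (-0.0315) and *Mrps12* (-0.0122) turned as well. *Mrps11*, *Mrps25* and *Mrpl48*, not named by rule, also turned there, and 18 members did in all. With quantile normalization 4 members turned, among them *Mrps34*, also not named by rule. Scaling to the recovered reads, added after seeing the data, gave 4 members whose groups did not overlap, and *Mrps21* (-0.0574), *Mrps35* (-0.00360), *Mrps10* (-0.0218) and *Mrps12* (-0.00221) turned, as did 17 members in all, including the same 3. The shift of all fold changes by about -0.10 in these rescalings is part of their construction, and for quantile normalization the cause was not tested. Without the trend, 0 members had an unadjusted *p* under 0.05 (8.77% of genes tested). The replicate block gave 346 genes, 18 members at an unadjusted *p* under 0.05 and 3 genes of the pathway lists with an adjusted *p* under 0.05, added *Bax* to the p53 genes called (5 in place of 4), and changed no other call of the genes and lists named. In replicates 2 and 3 alone 1851 genes and 18 members were called, 33 members had a limma unadjusted *p* under 0.05 and 55 had groups that did not overlap. There 9 genes of the pathway lists were called, and *Hnrnpk* had a log2 fold change of -0.45 with a limma adjusted *p* of 0.0377. In all 5 members turned in that setting, *Mrpl33* (0.0774), *Mrps36* (0.0501), *Mrpl23* (0.0612), *Mrpl21* (0.122) and *Mrpl43* (-0.0267). Of these only *Mrpl33* and *Mrps36* were named by rule. With each library left out in turn, the genes called ranged from 1 to 23, members with an unadjusted *p* under 0.05 from 0 to 31, members whose groups did not overlap from 10 to 54, genes called in the pathway lists from 0 to 1 and the median log2 fold change of members from 0.0558 to 0.28. The upper end was without CKO replicate 1 each time, and the lower end of the median was without CKO replicate 2. Among the genes named by rule, directions that turned ranged from -0.17 to 0.29 for *Mrps21*, -0.20 to 0.10 for *Mrpl34*, -0.22 to 0.22 for *Mrpl33*, -0.0330 to 0.19 for *Mrps10*, -0.12 to 0.0775 for *Mrps36* and -0.10 to 2.01 for *mt-Atp8*. For replicate 1 and for single libraries the cause was not tested. Members had at least 176 reads in every library, and with 3 libraries a group the median 95% interval of a member reached 0.37 to either side.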
